A study of Mus musculus with 10 samples.

Results

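The genes described here build the presynaptic release site and the synaptic vesicles that fuse there, 40 genes in all. They were chosen by name, from the known parts of the active zone, the vesicle membrane and the fusion machinery. All 40 were found among the 18453 rows of the count tables, and all 40 were among the 14393 genes tested. RNA was measured in 10 libraries of CA3, a field of the hippocampus, from mice of strain C57BL/6J. The libraries are labelled male, while the protocol text speaks of both sexes. In 5 libraries an adeno-associated virus carrying a short hairpin RNA (shRNA) against the transcription factor Mef2c had been injected into CA3 on both sides, and in the other 5 the virus carried a scrambled hairpin. All mice thus received a virus and an operation, and uninjected tissue was not analysed here. The labels aim the knockdown at CA3 pyramidal neurons, but the libraries are of tissue, in which uninfected cells and glia are also counted. The age of the mice, the time after injection and whether each library is 1 animal are not given, and p-values here therefore refer to the scatter among libraries, which may in part be technical.

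At a chemical synapse, vesicles filled with transmitter dock at the active zone, a dense protein meshwork facing the postsynaptic cell. Scaffold proteins hold calcium channels and vesicles together, priming factors open the way for the SNARE proteins of vesicle and plasma membrane to zip up, and a calcium sensor on the vesicle triggers fusion when calcium enters. In CA3, the large terminals of the mossy fibres, the recurrent contacts between pyramidal neurons and the terminals of local interneurons all use this machinery. RNA of a presynaptic protein is made in the cell body, so terminals of mossy fibres, whose cell bodies lie in the dentate gyrus, contribute little of their RNA to a CA3 sample.

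Of the 40 genes, 8 fell in the Mef2c shRNA libraries and 0 rose (edgeR quasi-likelihood test, Benjamini-Hochberg adjusted p under 0.05 over all genes). Those that fell were the tomosyn genes Stxbp5l and Stxbp5, the scaffold genes Pclo, Rims1 and Ppfia1, the priming factor genes Unc13a and Unc13b, and the synapsin gene Syn3. Among all genes tested, 7.61% fell and 4.66% rose, 12.3% together. The share of the members that fell was 20%. No member with a positive log2 fold change had an unadjusted p under 0.05, and 0 members were higher in the DESeq2 test. The median log2 fold change was -0.12 over the 40 members and 0.02 over all genes tested. The log2 fold change was negative in 29 members, or 72.5%, against 47.2% of all genes. Both groups of libraries stood fully apart in 7 members, all of them lower with the shRNA, while 6.04% of all genes stood apart in that direction, 3.3% in the other and 9.34% in all. After a correction of each library for transcript length and GC content, 1 member, Stxbp5l, still passed, beside which 0.959% of all genes fell and 0.695% rose, 1.65% together. With transcript ends taken from RefSeq the same 1 member passed, and 0.903% of all genes fell, of 1.81% called. Corrected values are given below for the genes that fell and for others whose value moved with the correction, since the members range from 2.17 to 20.1 kb in transcript length and the median fold change over all genes was lower in classes of longer transcripts. In tissue RNA, fewer cells of a type and less RNA per cell cannot be told apart.

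**Figure D1:**
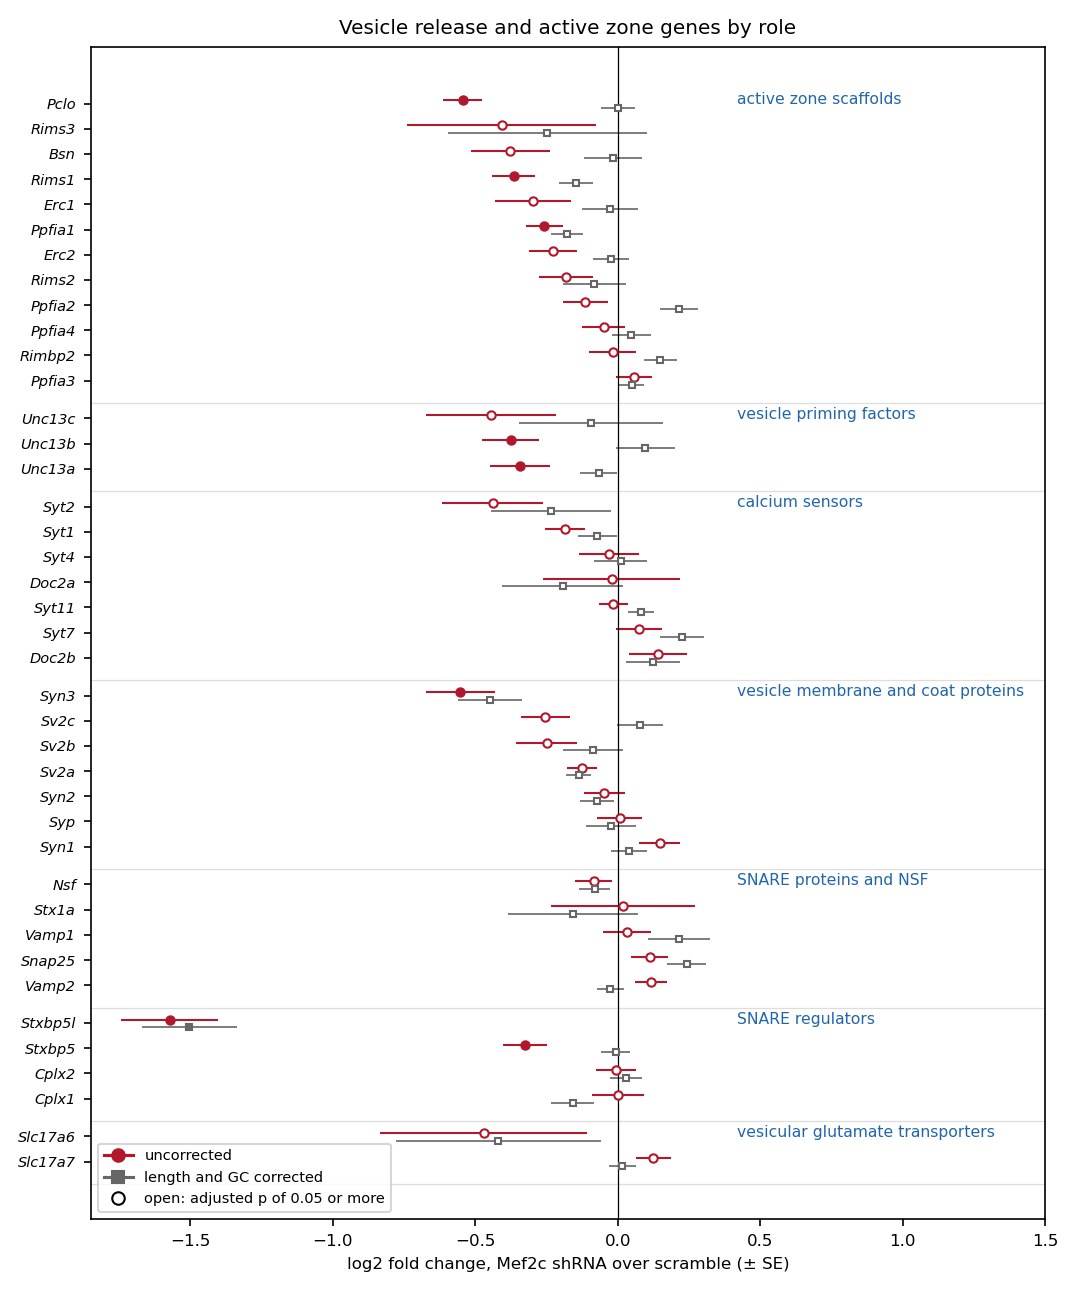
Log2 fold change of each of the 40 members, Mef2c shRNA over scramble (horizontal axis, log2 units, bars ± SE), by role; circles are uncorrected and squares are corrected for transcript length and GC content, and filled symbols have an adjusted p under 0.05. The 8 filled circles lie left of 0, and the only filled square is Stxbp5l at -1.50.

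Library totals ranged from 14701928 to 17798090 counts, and every Mef2c shRNA library was deeper than every scramble library. The members took between 1.60% and 1.78% of the counts in the Mef2c shRNA libraries and between 1.74% and 1.77% in the scramble libraries. Mef2c itself, the targeted gene, stood at 111, 131, 121, 163 and 286 CPM (each gene's counts scaled to a common library size) in Mef2c shRNA libraries 1 to 5, against 166, 198, 176, 312 and 175 CPM in scramble libraries 1 to 5. Its log2 fold change of -0.34 (SE 0.300) did not pass (edgeR adjusted p = 0.489; exact two-sided permutation p = 0.246). The library labelled Mef2c shRNA 5 was the highest of its group and above 4 of the 5 scramble libraries, which goes against its label. Scramble library 4 was the highest of all 10, which does not go against its label. Without the library labelled Mef2c shRNA 5 the log2 fold change of Mef2c was -0.64 (edgeR adjusted p = 0.0877), and without scramble library 4 it was -0.14 (edgeR adjusted p = 0.799). The library labelled Mef2c shRNA 5 and scramble library 4 had the highest mean score of cortical layer markers in their groups, 0.38 and 0.19 in log2 units. The former was also highest of its group in the GABAergic interneuron (0.32) and general neuron (0.11) scores. It was lowest of its group in the microglia (-0.25), astrocyte (-0.26) and oligodendrocyte (-0.38) scores. All 9 CA3 pyramidal markers were detected and tested, and 0 of them passed. Their summed level was 2203, 2077, 2159, 1664 and 1644 CPM in Mef2c shRNA libraries 1 to 5, and 1716 to 1939 CPM in the scramble libraries. Of 12 microglia markers, 5 rose and 0 fell, and their summed level ran from 395 to 747 CPM in the Mef2c shRNA libraries and from 353 to 464 CPM in the scramble libraries. No marker of the 10 lists for cell types was at 0 in all libraries. Of 10 general neuron markers, 1 rose and 1 fell, with a summed level of 3804 to 4308 CPM in the Mef2c shRNA libraries and 4048 to 4211 CPM in the scramble libraries. Of 11 GABAergic interneuron markers, 0 rose and 2 fell. Their summed level was 688, 732, 678, 807 and 896 CPM in Mef2c shRNA libraries 1 to 5, and 783 to 868 CPM in the scramble libraries. With the microglia score as a covariate 27 of all genes passed. Among the members 1 passed, Pclo (log2 fold change -0.57, edgeR adjusted p = 0.0449), and the other 7 that fell did not. Of those, Unc13a stood at -0.35 (SE 0.156), Stxbp5 at -0.41 (SE 0.110), Ppfia1 at -0.36 (SE 0.091) and Syn3 at -0.60 (SE 0.179), none nearer to 0 than without the covariate, while Rims1 at -0.23, Unc13b at -0.15 and Stxbp5l at -1.37 were nearer to 0. With the cortical layer score as a covariate 14 members passed, 13 lower and 1 higher. That fit called 3096 of all genes, against 1766 without a covariate. The part of the other markers in the results was not tested.

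Stxbp5l encodes tomosyn-2, a soluble protein with a SNARE motif that occupies syntaxin and SNAP-25 and so hinders the assembly of fusion-competent SNARE complexes. It had by far the largest change among the members. Stxbp5l (ENSMUSG00000022829, chromosome 16, 37114942 to 37384962, minus strand, GRCm38) stood at 29.5, 15.7, 15.3, 18.9 and 15.5 CPM in Mef2c shRNA libraries 1 to 5, against 50.04, 59.98, 54.0, 62.6 and 54.9 CPM in scramble libraries 1 to 5. Every Mef2c shRNA library was below every scramble library, and library 1 was the highest of its group. The means were 19.0 ± 6.09 CPM with the shRNA and 56.3 ± 4.98 CPM with the scramble (SD, n = 5 each), a level 66.3% lower. Its log2 fold change came to -1.57 (SE 0.170; edgeR, adjusted p = 0.000664), which ranked 15 by size among the 1095 genes that fell. It fell also without the library labelled Mef2c shRNA 5 (-1.51, SE 0.182, edgeR adjusted p = 0.00149). Without Mef2c shRNA library 1 it was -1.78 (SE 0.091, edgeR adjusted p = 3.26e-07). Corrected for length and GC content, Stxbp5l kept a log2 fold change of -1.50 (SE 0.166, edgeR adjusted p = 0.00424).

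The annotated end of Stxbp5l bears on this value. In RefSeq the gene runs 7867 bp beyond the 3' end of GENCODE M21, whose longest transcript is 4.39 kb. Which annotation the counting used is not given in the sources used here. Among the 176 tested genes whose RefSeq end lies 5 to 20 kb past the GENCODE end, 25.6% fell and 1.70% rose, and 7.95% had a log2 fold change under -1. Among the 9445 tested genes with no such extension it was under -1 in 0.244%. With transcript lengths taken to the RefSeq ends, the corrected log2 fold change of Stxbp5l was -1.19 (SE 0.124, edgeR adjusted p = 0.00253). The part of reads past the GENCODE end was not tested. Of 23 alternatives, 2 ended the call: when the mean score of the microglia markers was added to the fit the value was -1.37 (edgeR adjusted p = 0.0573), and without Mef2c shRNA libraries 2, 3 and 4 it was -1.33 (edgeR adjusted p = 0.0677), a fit that called 0 of all genes.

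Stxbp5, the paralogue that encodes tomosyn-1, fell far less. Stxbp5 (ENSMUSG00000019790, chromosome 10, 9755547 to 9901079, minus strand) stood at 153, 135, 151, 139 and 115 CPM in Mef2c shRNA libraries 1 to 5, against 166, 181, 162, 173 and 185 CPM in scramble libraries 1 to 5. The groups did not overlap. On the log2 scale the difference was -0.32 (SE 0.076; edgeR, adjusted p = 0.0172), and the mean was 20.2% lower with the shRNA. Its longest transcript is 8.83 kb, and after the length and GC correction the log2 fold change stood at -0.01 (SE 0.051, edgeR adjusted p = 0.965). The call was also lost without scramble library 2 or 5 or Mef2c shRNA library 2, at an adjusted p of at most 0.0589. The per-library log2 ratio of Stxbp5l to Stxbp5 averaged -2.84 ± 0.332 with the shRNA and -1.61 ± 0.114 with the scramble (SD, n = 5 each). This difference of -1.23 gave p = 0.0079 by exact permutation (two-sided), which 5 libraries a group cannot go below, and 0.0694 after Benjamini-Hochberg adjustment over the 35 paralogue pairs compared.

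The complexins clamp and then promote SNARE zippering, and neither passed the test. Cplx1 averaged 445 ± 62.4 CPM in the Mef2c shRNA libraries and 445 ± 37.9 CPM in the scramble libraries (SD, n = 5 each). Cplx2, the most abundant member per kilobase of annotated exon, averaged 1780.2 ± 162 CPM in the Mef2c shRNA libraries and 1789 ± 107 CPM in the scramble libraries (SD, n = 5 each). Their log2 fold changes were 0.00 (SE 0.091) and -0.01 (SE 0.071).

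**Figure D2:**
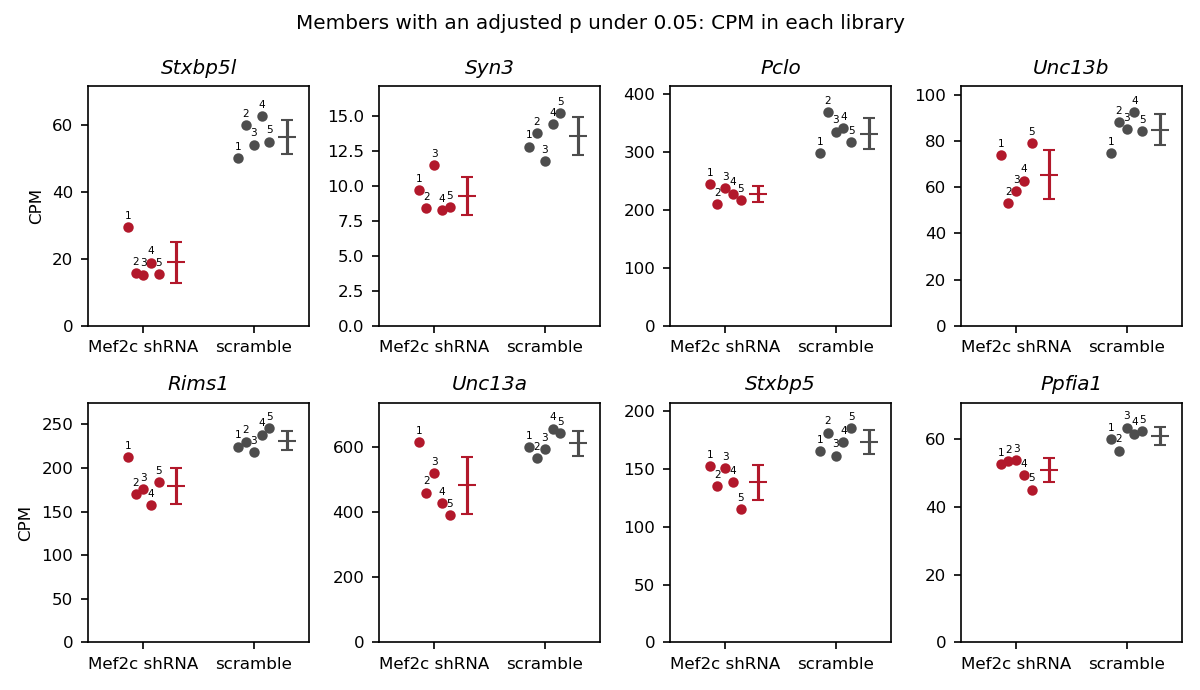
CPM in each library (points numbered by library, vertical axis from 0) with mean ± SD (bars, n = 5) for the 8 members with an adjusted p under 0.05, Mef2c shRNA left and scramble right. The groups overlap in Unc13a and Unc13b and in none of the other 6 genes, and Stxbp5l has the widest gap for its level, 29.5 CPM with the shRNA against 50.04 CPM with the scramble at the nearest libraries.

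Of the 12 active zone scaffold genes, 3 fell and 0 rose, and 11 had a negative log2 fold change. Pclo encodes piccolo, one of the giant scaffold proteins that keep vesicles clustered at the release site. Pclo (ENSMUSG00000061601, chromosome 5, 14514918 to 14863459, plus strand) stood at 244, 209.5, 238, 228 and 217 CPM in Mef2c shRNA libraries 1 to 5, against 297, 368, 335, 341 and 316 CPM in scramble libraries 1 to 5. All Mef2c shRNA libraries lay below all scramble libraries, with little spread within either group. This gave a log2 fold change of -0.54 (SE 0.068; edgeR, adjusted p = 0.000664), and the mean was 31.4% lower. Pclo passed without each single library in turn. Its longest transcript, 20.1 kb, is the longest of the members, and after the length and GC correction the log2 fold change stood at 0.00 (SE 0.059, edgeR adjusted p = 0.993).

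Bsn encodes bassoon, the structural relative of piccolo, and did not pass. It stood at 816, 533, 692, 451 and 517 CPM in Mef2c shRNA libraries 1 to 5, against 768, 728, 787, 789 and 834 CPM in scramble libraries 1 to 5. Mef2c shRNA library 1 lay among the scramble libraries while the other 4 lay below them. In the edgeR test the log2 fold change stood at -0.38 (SE 0.138, adjusted p = 0.0918), and at -0.02 after the length and GC correction. Without Mef2c shRNA library 1 Bsn passed, at -0.51 (SE 0.103, edgeR adjusted p = 0.00473). That fit called 3305 of all genes, against 1766 with all libraries, and no other fit without 1 library called Bsn. The log2 ratio of Pclo to Bsn differed between the groups by -0.13, with an exact permutation p of 0.421.

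Rims1 encodes RIM1, which ties vesicles, priming factors and calcium channels together. Rims1 (ENSMUSG00000041670, chromosome 1, 22286251 to 22805994, minus strand) stood at 212, 169.8, 176, 157 and 183 CPM in Mef2c shRNA libraries 1 to 5, against 224, 230.2, 218, 238 and 246 CPM in scramble libraries 1 to 5. The groups did not overlap, though Mef2c shRNA library 1 came close to scramble library 3. Its log2 fold change came to -0.36 (SE 0.075; edgeR, adjusted p = 0.0095), and -0.15 (SE 0.059, edgeR adjusted p = 0.213) after the length and GC correction. It passed without each single library in turn. Rims2, which encodes the closely related RIM2, averaged 70.8 ± 11.7 CPM with the shRNA and 80.3 ± 5.52 CPM with the scramble (SD, n = 5 each), which did not reach the threshold (edgeR adjusted p = 0.216). The library labelled Mef2c shRNA 5 stood at 91.5 CPM of Rims2 and the other 4 between 64.0 and 68.0 CPM, below all scramble libraries. Without that library the log2 fold change of Rims2 was -0.29 (SE 0.063, edgeR adjusted p = 0.0107).

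Rims3, a short RIM form that lacks most of the binding domains, varied more within groups than between them. It stood at 50.03, 47.0, 38.9, 77.1 and 120.4 CPM in Mef2c shRNA libraries 1 to 5, against 65.6, 81.8, 79.6, 129 and 86.3 CPM in scramble libraries 1 to 5. The highest values in each group were in the library labelled Mef2c shRNA 5 and in scramble library 4, which were also highest in Mef2c and in the cortical layer score. On the log2 scale the difference was -0.41 (SE 0.332; edgeR, adjusted p = 0.451). With the cortical layer score as a covariate it was -0.32 (edgeR adjusted p = 0.00864), and without the library labelled Mef2c shRNA 5 it was -0.73 (edgeR adjusted p = 0.103).

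Ppfia1 encodes liprin-alpha-1, a scaffold that helps to place active zones. Ppfia1 (ENSMUSG00000037519, chromosome 7, 144476758 to 144553729, minus strand) stood at 52.6, 53.5, 53.8, 49.5 and 45.2 CPM in Mef2c shRNA libraries 1 to 5, against 60.1, 56.7, 63.5, 61.7 and 62.5 CPM in scramble libraries 1 to 5. The groups did not overlap, and the change was small: the log2 fold change stood at -0.26 (SE 0.066, edgeR adjusted p = 0.0248). It no longer passed after the length and GC correction (-0.18, SE 0.056, edgeR adjusted p = 0.117), nor without scramble library 1, 4 or 5 or Mef2c shRNA library 4, nor with a replicate block (edgeR adjusted p = 0.0573). The other liprins did not pass. Ppfia2, Ppfia3 and Ppfia4 had log2 fold changes of -0.11 (SE 0.079), 0.06 (SE 0.063) and -0.05 (SE 0.075), and corrected ones of 0.22, 0.05 and 0.05. The log2 ratio of Ppfia1 to Ppfia3 differed between the groups by -0.31 and that of Ppfia1 to Ppfia4 by -0.20, each with an exact permutation p of 0.0079 (0.0694 adjusted over the 35 pairs).

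The ELKS genes Erc1 and Erc2, whose products bind RIM and bassoon, did not pass. Erc1 averaged 47.7 ± 11.2 CPM in the Mef2c shRNA libraries and 58.7 ± 1.78 CPM in the scramble libraries (SD, n = 5 each), with a spread with the shRNA several times that of the scramble libraries. Erc2 had a log2 fold change of -0.23 (SE 0.084, edgeR adjusted p = 0.0874). Without Mef2c shRNA library 1 both passed, Erc1 at -0.39 and Erc2 at -0.29 (edgeR adjusted p = 0.0441 and 0.0154). That fit called 3305 of all genes, and neither gene passed in any other fit without 1 library. With the length and GC correction Erc1 stood at -0.03 and Erc2 at -0.02. Rimbp2, which links RIM to calcium channels, stood between 186 and 251 CPM in the Mef2c shRNA libraries and between 205 and 233 CPM in the scramble libraries (log2 fold change -0.02, SE 0.083; corrected 0.15).

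All 3 Unc13 genes, which encode the Munc13 priming factors that open syntaxin, had negative log2 fold changes, and 2 of them fell. Unc13a (ENSMUSG00000034799, chromosome 8, 71624417 to 71671757, minus strand) encodes Munc13-1, a main priming factor of glutamate synapses. It stood at 615, 460.1, 519.6, 427 and 391 CPM in Mef2c shRNA libraries 1 to 5, against 599.8, 566, 594, 657 and 644 CPM in scramble libraries 1 to 5. Mef2c shRNA library 1 lay among the scramble libraries and the other 4 lay below them. The log2 fold change was -0.34 (SE 0.104), and at an edgeR adjusted p of 0.0478 it was the weakest call of the 8. Without Mef2c shRNA library 1 it was -0.44 (edgeR adjusted p = 0.00232), and leaving out any of the other 9 libraries ended the call, as did a replicate block (edgeR adjusted p = 0.0577). Corrected for length and GC content it was -0.07 (SE 0.064, edgeR adjusted p = 0.648).

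Unc13b (ENSMUSG00000028456, chromosome 4, 43058953 to 43264871, plus strand) encodes Munc13-2. It stood at 73.8, 53.2, 58.3, 62.8 and 78.9 CPM in Mef2c shRNA libraries 1 to 5, against 74.6, 88.2, 84.9, 92.3 and 84.1 CPM in scramble libraries 1 to 5. Only scramble library 1 lay within the range of the Mef2c shRNA libraries. This gave a log2 fold change of -0.38 (SE 0.101; edgeR, adjusted p = 0.0305), and -0.45 (SE 0.089, edgeR adjusted p = 0.00667) without the library labelled Mef2c shRNA 5. It did not pass without scramble library 2, 4 or 5 or Mef2c shRNA library 2, 3 or 4. Its longest transcript is 14.8 kb, and the length and GC correction turned the sign, to 0.10 (SE 0.104, edgeR adjusted p = 0.691). Unc13c, which encodes Munc13-3, known mainly from the cerebellum, averaged 15.9 ± 5.58 CPM with the shRNA and 21.7 ± 4.73 CPM with the scramble (SD, n = 5 each), short of the threshold (edgeR adjusted p = 0.217).

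Of the 7 calcium sensor genes 0 passed in edgeR, where 2 had an unadjusted p under 0.05, and 0 passed in DESeq2. Syt1 encodes synaptotagmin-1, the sensor of fast synchronous release. It stood at 1340.1, 1164, 1309, 1136 and 1430.2 CPM in Mef2c shRNA libraries 1 to 5, against 1390.1, 1547, 1459, 1435 and 1418 CPM in scramble libraries 1 to 5. Only the library labelled Mef2c shRNA 5 lay within the scramble range. In the edgeR test the log2 fold change stood at -0.18 (SE 0.070, adjusted p = 0.0946), and without that library it was -0.23 (SE 0.066, edgeR adjusted p = 0.0388). Corrected for length and GC content it was -0.07. Syt2, the fast sensor of hindbrain synapses and some interneurons, averaged 30.6 ± 8.87 CPM with the shRNA and 41.5 ± 4.54 CPM with the scramble (SD, n = 5 each; log2 fold change -0.44, SE 0.177, edgeR adjusted p = 0.122; corrected -0.23). It passed without Mef2c shRNA library 4 (-0.58, edgeR adjusted p = 0.0422) and with a replicate block (-0.48, edgeR adjusted p = 0.0324).

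The other sensors lay closer to 0. Syt7, a slow sensor of high affinity, had a log2 fold change of 0.08 (SE 0.081). Syt4 and Syt11, relatives that bind calcium poorly, had -0.03 (SE 0.104) and -0.01 (SE 0.050). Syt11 varied little, between 849 and 885 CPM in the Mef2c shRNA libraries and between 843 and 896 CPM in the scramble libraries. Doc2a and Doc2b, high-affinity sensors linked to spontaneous and asynchronous release, had -0.02 (SE 0.241) and 0.14 (SE 0.102). Without the library labelled Mef2c shRNA 5 Doc2a was at -0.29 (edgeR adjusted p = 0.278). Doc2a was the least abundant member by counts, 99 to 254 per library. Doc2b was the only member that rose in any fit without 1 library: without the library labelled Mef2c shRNA 5, which stood at 98.7 CPM against 135 to 152 CPM in the other 4, it was 0.23 (edgeR adjusted p = 0.0406).

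Of 7 genes for proteins of the vesicle membrane and its coat, 1 fell, the synapsin gene Syn3. Synapsins coat vesicles and hold them in the reserve pool. Syn3 (ENSMUSG00000059602, chromosome 10, 86055125 to 86498896, minus strand) stood at 9.70, 8.38, 11.5, 8.27 and 8.45 CPM in Mef2c shRNA libraries 1 to 5, against 12.8, 13.7, 11.7, 14.4 and 15.2 CPM in scramble libraries 1 to 5. The groups did not overlap, but Mef2c shRNA library 3 and scramble library 3 nearly met. Its log2 fold change came to -0.55 (SE 0.121; edgeR, adjusted p = 0.0125), the second largest of the members, and it passed without each single library in turn. After the length and GC correction it was -0.45 (SE 0.112, edgeR adjusted p = 0.0625). In RefSeq the gene runs 6379 bp beyond the GENCODE end, and with lengths taken to the RefSeq ends the corrected value was -0.17 (SE 0.112, edgeR adjusted p = 0.46). Per kilobase of annotated exon, Syn3 had the lowest level of the members, 0.754 CPM with the shRNA and 1.11 CPM with the scramble.

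The major synapsins did not pass. Syn1 averaged 689 ± 79.1 CPM in the Mef2c shRNA libraries and 622 ± 20.6 CPM in the scramble libraries (SD, n = 5 each; log2 fold change 0.15, SE 0.073, edgeR adjusted p = 0.193). It passed, at 0.18, with the cortical layer score as a covariate (edgeR adjusted p = 0.036), where 3096 of all genes were called. Without the library labelled Mef2c shRNA 5 the log2 fold change of Syn1 was 0.07 (edgeR adjusted p = 0.389). Syn2 had a log2 fold change of -0.05 (SE 0.072). The log2 ratio of Syn1 to Syn3 averaged 6.07 ± 0.290 with the shRNA and 5.42 ± 0.166 with the scramble (SD, n = 5 each), a difference of 0.65 with an exact permutation p of 0.0079 (0.0694 adjusted over the 35 pairs). The ratio rests on CPM without the length and GC correction, so transcript length can enter both its level and its change. With that correction the log2 fold change was 0.04 in Syn1 and -0.45 in Syn3, and with RefSeq ends 0.03 and -0.17.

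Sv2a, Sv2b and Sv2c encode the SV2 glycoproteins of the vesicle membrane, which act on priming and calcium sensor traffic. In Sv2a the groups did not overlap. It stood at 469, 429.6, 425, 457 and 446 CPM in Mef2c shRNA libraries 1 to 5. In scramble libraries 1 to 5 it stood at 482, 480.5, 499.7, 477 and 488 CPM. The change was small and missed the threshold (log2 fold change -0.12, SE 0.052, edgeR adjusted p = 0.124). Sv2b and Sv2c had log2 fold changes of -0.25 (SE 0.106) and -0.25 (SE 0.086), neither past the threshold (edgeR adjusted p = 0.133 and 0.0655). Without Mef2c shRNA library 1, where 3305 of all genes were called, both passed, at -0.33 and -0.28 (edgeR adjusted p = 0.0274 and 0.0379). Sv2c passed also without Mef2c shRNA library 4. Neither gene passed in any other fit without 1 library. Corrected for length and GC content, Sv2b stood at -0.09 and Sv2c at 0.08. Syp, which encodes synaptophysin, the classic vesicle marker, averaged 841 ± 103 CPM with the shRNA and 837 ± 40.9 CPM with the scramble (SD, n = 5 each; log2 fold change 0.01, SE 0.079).

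The core fusion machinery gave 0 calls among 5 genes, with 0 unadjusted p under 0.05 in edgeR and 0 calls in DESeq2. Snap25 encodes the SNARE protein of the plasma membrane that carries a pair of SNARE motifs. It stood at 1638, 1732, 1756, 1686 and 2036 CPM in Mef2c shRNA libraries 1 to 5, against 1585, 1704, 1632, 1658 and 1606 CPM in scramble libraries 1 to 5. The groups overlapped, and the log2 fold change stood at 0.11 (SE 0.065, edgeR adjusted p = 0.26; corrected 0.24, edgeR adjusted p = 0.089). Vamp2, the main vesicle SNARE of forebrain synapses, had 0.12 (SE 0.055), its relative Vamp1 0.03 (SE 0.084), and Nsf, the ATPase that takes spent SNARE complexes apart, -0.08 (SE 0.066).

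Stx1a, which encodes the SNARE syntaxin-1A, varied between libraries as Rims3 did. It stood at 91.0, 76.9, 83.7, 96.6 and 179.6 CPM in Mef2c shRNA libraries 1 to 5, against 96.4, 81.4, 107, 143 and 92.7 CPM in scramble libraries 1 to 5. Its highest values in each group were again in the library labelled Mef2c shRNA 5 and in scramble library 4, and its log2 fold change was 0.02 (SE 0.254). Without the library labelled Mef2c shRNA 5 it was -0.26 (edgeR adjusted p = 0.286).

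Of the 2 vesicular glutamate transporters, which fill the vesicles, 0 passed in edgeR, 0 had an unadjusted p under 0.05 and 0 passed in DESeq2. Slc17a7 encodes VGLUT1, the transporter of hippocampal and cortical pyramidal neurons. It stood at 1792, 1726, 1719, 1559.6 and 1775 CPM in Mef2c shRNA libraries 1 to 5, against 1598, 1423, 1651, 1571 and 1621 CPM in scramble libraries 1 to 5. Only Mef2c shRNA library 4 lay within the scramble range (log2 fold change 0.12, SE 0.061, edgeR adjusted p = 0.188). Slc17a6 encodes VGLUT2, used mainly below the cortex. It stood at 7.90, 9.77, 9.47, 28.8 and 21.1 CPM in Mef2c shRNA libraries 1 to 5, against 15.9, 25.8, 22.9, 21.4 and 20.9 CPM in scramble libraries 1 to 5. Mef2c shRNA libraries 1 to 3 lay below all scramble libraries and library 4 above all of them, and the log2 fold change stood at -0.47 (SE 0.363, edgeR adjusted p = 0.422).

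**Figure D3:**
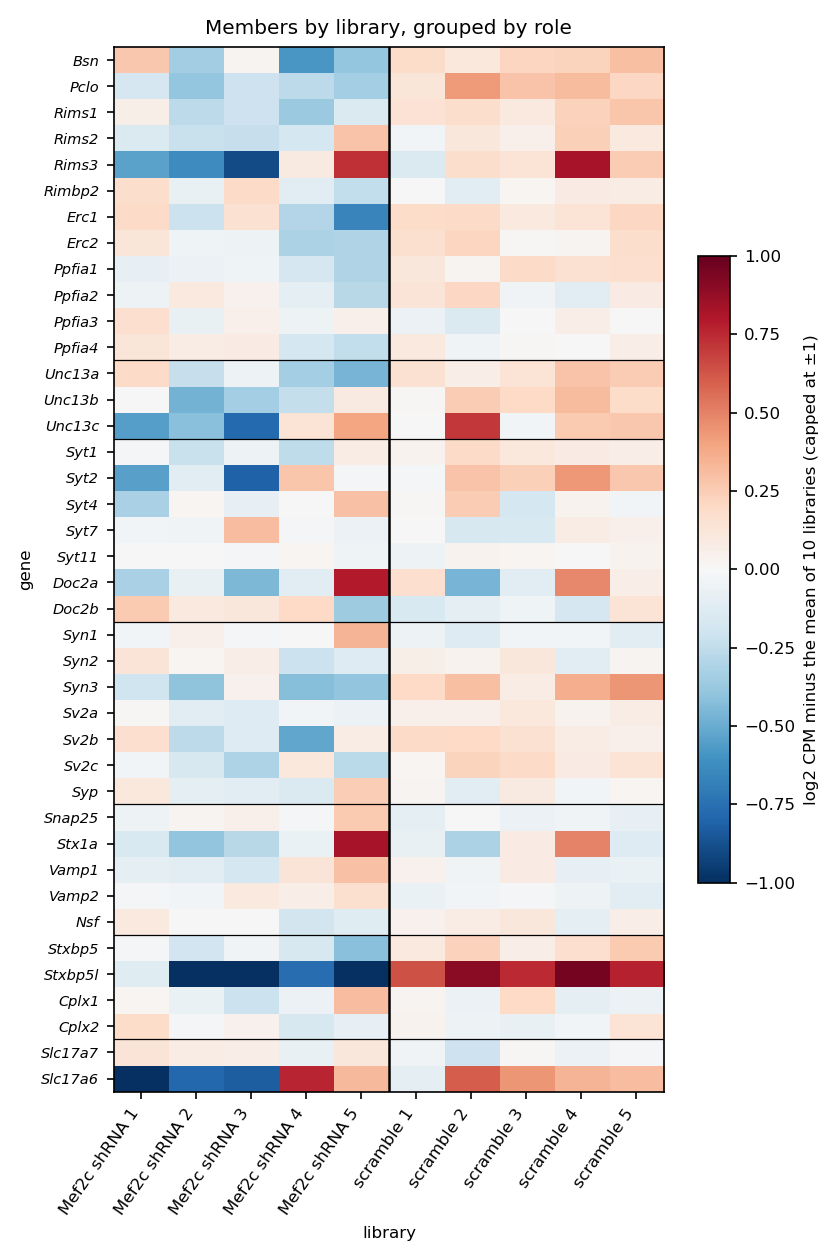
Log2 CPM of each member in each library minus its mean over the 10 libraries (colour, log2 units, capped at ±1), Mef2c shRNA libraries left and scramble libraries right, members grouped by role. Stxbp5l separates the groups in every library, whereas Rims3, Doc2a and Stx1a are high in the library labelled Mef2c shRNA 5 and in scramble library 4.

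Among the members, as among all genes, a larger share fell in the classes of longer transcripts. Of the 10 members with a longest transcript of 2 to 4 kb, 0 fell, and their median log2 fold change was 0.00, against 0.06 over the 5928 tested genes of that length. Of the 21 members of 4 to 8 kb, 4 fell (19.0%), and the median was -0.18, against -0.10 over 4823 tested genes, of which 10.7% fell. These classes use GENCODE lengths, and the 4 include Stxbp5l and Syn3, whose RefSeq ends lie 7867 and 6379 bp further. With RefSeq lengths both would lie in the class of 8 kb or more, and shares with those lengths were not computed. Of the 9 members of 8 kb or more, 4 fell (44.4%), and the median was -0.34, the same as the -0.34 over 904 tested genes, of which 52.7% fell. The scaffold genes have a median transcript length of 6.48 kb, the Unc13 genes of 10.3 kb and the SNARE genes with Nsf of 3.77 kb. After the length and GC correction the median log2 fold change was -0.02 in the scaffold genes, -0.07 in the Unc13 genes and -0.03 in the SNARE genes. Over all 40 members it was -0.02, and 24 were negative. A longer transcript and membership of a role cannot be told apart in the uncorrected values.

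**Figure D4:**
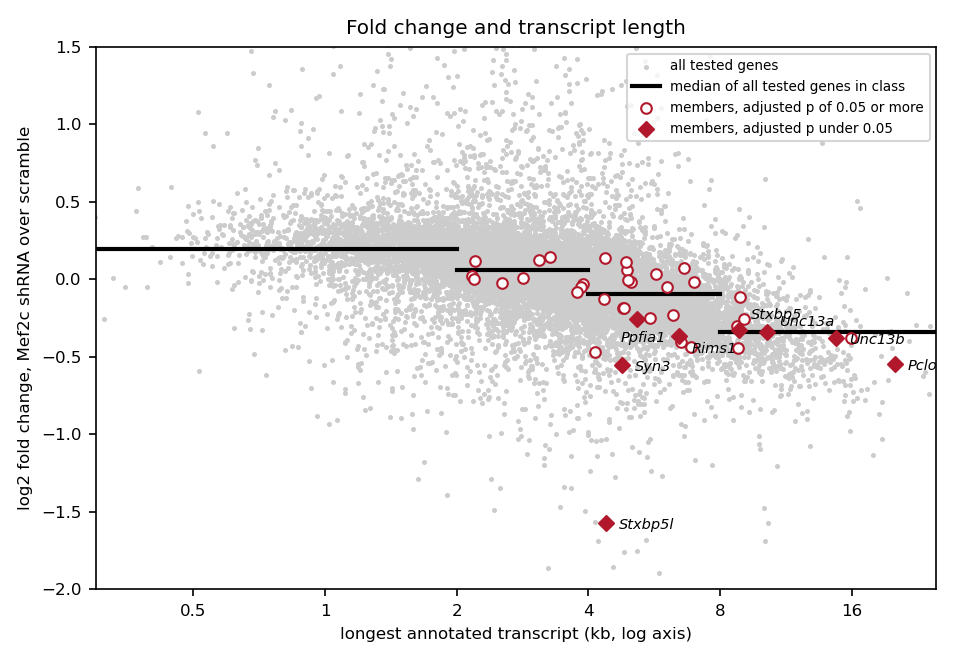
Log2 fold change, Mef2c shRNA over scramble (vertical axis), against the longest annotated transcript (horizontal log axis, kb) for all tested genes (grey) and the 40 members (red; filled diamonds have an adjusted p under 0.05); black lines are medians of all tested genes in 4 length classes, and 116 tested genes lie outside the axes. In the class of 8 kb or more, with a median of -0.34, Unc13a, Unc13b and Stxbp5 lie between -0.38 and -0.32 and Pclo at -0.54. Stxbp5l lies at -1.57, where the median of its class by GENCODE length is -0.10. Its RefSeq end lies 7867 bp past the GENCODE end, and with that length it would lie in the class of 8 kb or more.

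Across the 35 pairs of paralogues among the members, 8 pairs had an exact permutation p under 0.05 and 0 passed an adjusted p of 0.05. Pairs at the smallest possible exact permutation p, 0.0079, had an adjusted p of 0.0694. With 35 pairs, an adjusted p under 0.05 would have needed more pairs at or near that smallest p. The largest difference was that of Stxbp5l to Stxbp5. The ratios, of CPM plus 1 without the length and GC correction, were compared for all pairs within families. This comparison was added after the data had been seen.

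The wider vesicle cycle was represented by 97 further genes, of which 96 were tested, 10 fell and 5 rose. These are 10.4% and 5.21% of those tested, close to the 7.61% and 4.66% of all genes. Among the active zone partners, 3 of 19 fell and 0 rose. Lin7a, an adaptor of the CASK complex, averaged 10.2 ± 1.58 CPM in the Mef2c shRNA libraries and 16.8 ± 1.68 CPM in the scramble libraries (SD, n = 5 each; log2 fold change -0.72, SE 0.120, edgeR adjusted p = 0.00317), and still passed after the length and GC correction (-0.77, edgeR adjusted p = 0.0138). Rab3c, a vesicle GTPase that binds RIM, averaged 293 ± 56.8 CPM with the shRNA and 436 ± 44.0 CPM with the scramble (SD, n = 5 each; log2 fold change -0.58, SE 0.117, edgeR adjusted p = 0.0106; corrected -0.27, edgeR adjusted p = 0.217). Apba1, the adaptor Mint1, fell by 0.19 on the log2 scale (SE 0.059, edgeR adjusted p = 0.047; corrected -0.05).

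Among 28 partners of fusion and priming, 1 rose and 1 fell. Napa, the adaptor alpha-SNAP that brings Nsf to SNARE complexes, rose by 0.29 on the log2 scale (SE 0.060, edgeR adjusted p = 0.01), and Cadps, a priming factor of dense-core vesicles, fell by 0.25 (SE 0.056, edgeR adjusted p = 0.0147). Neither passed after the correction, where Napa was at 0.15 and Cadps at 0.04. Of 10 other synaptotagmins, 2 fell: Syt10 averaged 2.96 ± 0.813 CPM with the shRNA and 5.39 ± 0.920 CPM with the scramble (SD, n = 5 each; log2 fold change -0.86, SE 0.205, edgeR adjusted p = 0.0183), and Syt14 had a log2 fold change of -0.42 (SE 0.082, edgeR adjusted p = 0.00771). Like Stxbp5l and Syn3, both have RefSeq ends far past the GENCODE ends, by 8679 bp in Syt10 and 8580 bp in Syt14. After the length and GC correction Syt10 still passed (-0.95, edgeR adjusted p = 0.0447) and Syt14 did not (-0.08, edgeR adjusted p = 0.578). Corrected with the RefSeq ends, Syt10 was at -0.51 (edgeR adjusted p = 0.143) and Syt14 at 0.03 (edgeR adjusted p = 0.874).

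Of 12 tested genes for other vesicle membrane proteins 0 passed in edgeR, where 3 had an unadjusted p under 0.05, and 1 passed in DESeq2, Slc6a17, named after its value was seen. Of 27 endocytosis genes, 4 fell and 4 rose. Dnm3, a dynamin, fell by 0.37 on the log2 scale (SE 0.071, edgeR adjusted p = 0.00656), and Itsn2, an intersectin, by 0.22 (SE 0.061, edgeR adjusted p = 0.0361). Sh3gl1, an endophilin, rose by 0.34 (SE 0.072, edgeR adjusted p = 0.0113) and Epn1, epsin-1, by 0.26 (SE 0.070, edgeR adjusted p = 0.0302). After the length and GC correction Sh3gl1 still passed (0.26, edgeR adjusted p = 0.04997), while Dnm3 stood at -0.10, Itsn2 at -0.02 and Epn1 at 0.08 and did not. With RefSeq ends Sh3gl1 did not pass (0.26, edgeR adjusted p = 0.0502). Picalm, named after its value was seen, stood at -0.03 uncorrected and did not pass. It passed as higher after the correction (0.27, edgeR adjusted p = 0.0223) and with RefSeq ends (0.27, edgeR adjusted p = 0.021). The members had a median transcript length of 4.97 kb and a median log2 fold change of -0.12, against 3.89 kb and -0.01 in the wider genes.

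Promoter windows from RefSeq (GRCm38.p6, 250 bases before to 50 after the start of transcription) were found for 32 of the 40 members. They are shown for both tomosyn genes, for Pclo and for Unc13a, which cover the largest change, its paralogue, the longest transcript and a priming factor. Capitals mark a GC box (GGGGCGGGG on either strand) and, near the end of the Unc13a window, the left part of the RE1 element bound by the neuronal repressor REST (TTCAGCACC, here on the opposite strand).
Stxbp5l (chr16:37384909-37385208, minus strand): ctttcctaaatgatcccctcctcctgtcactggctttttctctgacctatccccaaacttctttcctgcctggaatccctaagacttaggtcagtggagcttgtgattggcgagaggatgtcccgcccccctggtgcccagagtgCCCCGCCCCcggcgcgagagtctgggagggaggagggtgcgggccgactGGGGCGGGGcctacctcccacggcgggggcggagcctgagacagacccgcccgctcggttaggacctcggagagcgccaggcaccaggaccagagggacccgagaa
Stxbp5 (chr10:9900991-9901290, minus strand): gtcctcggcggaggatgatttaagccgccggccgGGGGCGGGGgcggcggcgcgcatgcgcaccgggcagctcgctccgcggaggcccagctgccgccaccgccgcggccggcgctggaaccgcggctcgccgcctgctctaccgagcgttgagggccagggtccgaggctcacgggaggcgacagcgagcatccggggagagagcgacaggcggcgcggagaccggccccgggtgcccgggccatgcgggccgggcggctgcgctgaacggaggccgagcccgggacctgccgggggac
Pclo (chr5:14514668-14514967, plus strand): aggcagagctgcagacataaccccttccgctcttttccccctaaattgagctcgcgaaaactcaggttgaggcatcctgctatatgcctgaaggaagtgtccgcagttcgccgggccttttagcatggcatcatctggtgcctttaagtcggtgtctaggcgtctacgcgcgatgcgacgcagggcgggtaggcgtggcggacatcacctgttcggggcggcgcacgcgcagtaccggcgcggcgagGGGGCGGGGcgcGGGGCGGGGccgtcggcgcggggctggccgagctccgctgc
Unc13a (chr8:71671708-71672007, minus strand): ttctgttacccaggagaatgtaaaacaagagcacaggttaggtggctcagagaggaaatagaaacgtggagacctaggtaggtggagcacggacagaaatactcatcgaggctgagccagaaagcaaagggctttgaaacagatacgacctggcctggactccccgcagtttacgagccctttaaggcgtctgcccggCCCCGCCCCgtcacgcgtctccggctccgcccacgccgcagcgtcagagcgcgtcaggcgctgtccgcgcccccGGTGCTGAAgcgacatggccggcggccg

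The letters of 4 motifs were searched on both strands. The GC box, a site for Sp1-type factors, was found in 14 of the 32 members, in 7 of the 7 fallen genes with a window and in 7 of the other 25. It was found in 24.3% of the 11242 tested genes with a window and in 11.4% of all 32851 windows. Its share among all genes that fell was not computed, so no link between the GC box and the fall can be read. The MEF2 motif was searched only as CTA and TAG with any 4 bases between. In this form it was found in 0 of the 32 members and in 3.71% of the tested genes, and other forms were not searched. The RE1 part was found in Syn1, Unc13a and Ppfia3 and in 0.552% of the tested genes, and the cyclic AMP response element (TGACGTCA) in Syn1 and in 3.46% of the tested genes. No motif overlapped another in the windows shown. These are matches of letters in a short window and describe no binding.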

How the data were processed

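Each library has 1 deposited table of unnormalised counts by gene, made by the authors with HISAT2 and featureCounts on mm10, per the submitters' processing notes. Per the labels, libraries were made from polyA+ RNA and sequenced as read pairs. Not given in the sources used here: versions, annotation and strand setting, so reads of overlapping and antisense genes cannot be told apart.

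Groups follow the titles, with 5 libraries each. Of 18453 identifiers, 18445 matched GENCODE M21. The 14393 genes kept by filterByExpr were scaled by TMM and tested with edgeR 4.0.16 (quasi-likelihood, robust, R 4.3.3), with Benjamini-Hochberg adjustment over all of them and a threshold of 0.05. The SE is the absolute log2 fold change divided by the square root of F. CPM values use TMM library sizes. The biological coefficient of variation was 15.2%. The length and GC correction fits, per library, splines with 5 degrees of freedom each on log2 transcript length and on GC content, and a form with RefSeq 3' ends up to 20 kb further was added after seeing the data. Paralogue ratios were compared by exact permutation over 252 assignments. The fit was tested on simulated data. Within groups no pair of libraries agreed within sampling noise.

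All 40 members are accounted for; called members and those whose groups do not overlap have values per library, other members were given them after their values were seen, and up to 4 called genes with the smallest p are named from each wider list. The members, lists, paralogue pairs and motifs were chosen with earlier results of these data known. Alternatives covered scaling (DESeq2 1.42.0 size factors), filters, the DESeq2 test, thinning to 14701928 counts, the replicate block, marker covariates, thresholds and libraries left out.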

Additional observations from a re-analysis of the deposited data

Results flagged for a closer look

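Of 80 sets of 5 libraries, 1 per member and group, 6 had a library whose distance from its nearest neighbour, as a share of the range, was above Dixon's critical value of 0.710. Chance gives about 1 in 20 sets. All 6 were in Mef2c shRNA libraries, and in all 6 the library was the highest. The library labelled Mef2c shRNA 5 stood apart in Rims2 (91.5 CPM, the next 68.0, ratio 0.853), Stx1a (179.6 CPM, the next 96.6, ratio 0.808), Syn1 (828 CPM, the next 677, ratio 0.8) and Doc2a (15.3 CPM, the next 8.33, ratio 0.784). That library also had the highest Mef2c level and the highest cortical layer, GABAergic interneuron and general neuron scores of its group. Its microglia, astrocyte and oligodendrocyte scores were the lowest of its group. The part of these differences in the values flagged was not tested. Mef2c shRNA library 3 stood apart in Syt7 (699 CPM, the next 559, ratio 0.892). Mef2c shRNA library 1 stood apart in Stxbp5l (29.5 CPM, the next 18.9, ratio 0.749).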

How the results depend on the processing

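With all libraries, 1766 genes, 8 members and 15 wider genes passed. After the length and GC correction the counts were 238, 1 and 4. With RefSeq 3' ends they were 261 (131 higher, 130 lower), 1 and 2. With the cortical layer score as a covariate they were 3096, 14 and 26, and with the microglia score 27, 1 and 0 (23 wider genes had an unadjusted p under 0.05 in edgeR), where Mef2c stood at 0.154. Without scramble library 4 and the library labelled Mef2c shRNA 5 they were 1029, 7 and 8, and Mef2c then passed at -0.45 (edgeR adjusted p = 0.0274). Without Mef2c shRNA libraries 2, 3 and 4, edgeR called 0, 0 and 0, with 2590, 10 and 20 at an unadjusted p under 0.05. At a threshold of 0.01 they were 379, 3 and 3, and at 0.1 they were 3106, 12 and 26. Leaving out 1 library gave 631 to 3305 genes, 4 to 13 members and 7 to 27 wider genes. The members were 5 without scramble library 2 or 4 or Mef2c shRNA library 2, and 4 without scramble library 5. Without Mef2c shRNA library 1 the counts were 3305, 13 and 27. DESeq2 size factors, no filter, the stricter filter, the DESeq2 test and thinning gave 7 to 11 members. Among the genes called with all libraries, signs turned under the length and GC correction in Pclo (0.00122), Unc13b (0.0963) and Cadps (0.0419), and with RefSeq ends in Unc13b (0.0539), Cadps (0.0387) and Syt14 (0.0308); 11 members that were not called also changed sign under the correction. The cause of these changes was not tested. Depth was no lower than 14701928 counts; the least counted member, Doc2a, had 99 to 254 per library.

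Same-numbered libraries share only a number: their deviations correlated at 0.239, 0.185, 0.403, -0.114 and 0.0795 for numbers 1 to 5, and only number 3 correlated best with its own partner. With a replicate block 1313 genes, 7 members and 10 wider genes passed; Ppfia1 and Unc13a did not (edgeR adjusted p = 0.0573 and 0.0577), and Syt2 did (0.0324). With the block and the length and GC correction together the counts were 205 (109 higher, 96 lower), 1 and 1, with Unc13b at 0.0816 and Cadps at 0.0405.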
